A study of Mus musculus with 4 samples.

Results

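The subunit genes of RNA polymerases I, II and III were followed in RPP631, a line of mouse small cell lung cancer (SCLC). The cells were kept for 48 h with YKL at 100 nM, named as an inhibitor of CDK7 in the title of the series, or with the vehicle DMSO. The members were the protein-coding genes whose symbol begins with Polr1, Polr2 or Polr3 and a letter. This rule found 28 of the 54232 genes in the count table, 5 of them Polr1, 13 Polr2 and 10 Polr3 genes, and it used no measured value. A processed pseudogene, Polr2k-ps, also has such a symbol but is not protein-coding. It had 0 counts in each DMSO library and 1 and 0 counts in YKL. Each group held 2 libraries of total RNA from the same line, and the labels give no genotype for it. Whether replicates came from separate cultures is not stated, so every p-value here measures only the spread between these libraries, which may be technical.

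The nuclear genome is transcribed by multi-subunit enzymes. RNA polymerase I makes the large ribosomal RNA precursor, RNA polymerase II makes messenger RNA, and RNA polymerase III makes transfer RNA, 5S ribosomal RNA and other short RNAs. Each has its own pair of large subunits, which together form the catalytic centre, and some small subunits are built into more than 1 enzyme. Polr1c and Polr1d belong to polymerases I and III, and Polr2e, Polr2f, Polr2h, Polr2k and Polr2l to all of them. CDK7, as the kinase of TFIIH, phosphorylates the C-terminal domain of Polr2a, the largest subunit of polymerase II.

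The libraries held 34189709 and 31082753 assigned counts in DMSO and 29817387 and 32956564 in YKL. All 14 markers of the neuroendocrine SCLC state were read in every library, at a summed 6080 and 5660 CPM, counts scaled to a library of standard size, in DMSO and 5420 and 5020 CPM in YKL. The 14 markers of blood, endothelial, stromal and normal lung cells summed to 4.15 and 7.66 CPM in DMSO and 9.89 and 7.13 CPM in YKL, with 2 to 5 of them at 0 in a library. Cd3e was at 0 in all of them, and the leukocyte marker Ptprc had 0 and 2 counts in the vehicle but 25 and 23 under YKL (adjusted p = 0.039). The part of such cells in the results was not tested. Of 16749 genes tested, edgeR called 2.10% higher and 1.44% lower in YKL at an adjusted p under 0.05. Scaling centres the fold changes of all genes, so a change shared by most transcripts would not show.

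The part of Polr2a that CDK7 modifies is a tail of repeats of 7 amino acids with the consensus YSPTSPS. In the transcript Polr2a-201 of GENCODE M21 (GRCm38), which encodes 1970 residues, 50 heptads match a tyrosine, a serine or threonine, a proline, any residue, a serine or threonine, a proline and any residue. They lie between residues 1593 and 1953. Of these heptads, 21 have the consensus and 29 differ from it. The consensus copies are concentrated near the enzyme: 18 are among the first 25 heptads and 3 among the second 25. Both stretches below lie in the last exon, exon 29 of 29, on the minus strand of chromosome 11, and each codes for 6 heptads in 126 bases. They are shown because they carry the substrate of the inhibited kinase in the transcript that rose. Capitals mark the codon of position 5 of each heptad, a serine that CDK7 is known to phosphorylate. The proximal stretch (chr11:69735292-69735417) codes for residues 1636 to 1677, all 6 heptads having the consensus. The distal stretch (chr11:69734725-69734850) codes for residues 1825 to 1866, with 0 consensus heptads and 3 that end in lysine.
Proximal repeats: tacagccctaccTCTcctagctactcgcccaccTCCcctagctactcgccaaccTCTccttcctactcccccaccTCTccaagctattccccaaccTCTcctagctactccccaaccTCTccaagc
Distal repeats: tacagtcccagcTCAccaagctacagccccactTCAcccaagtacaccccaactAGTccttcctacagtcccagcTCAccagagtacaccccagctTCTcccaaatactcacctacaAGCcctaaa

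In YKL the transcript of Polr2a rose, and it was the 1 member called of 28. All 28 passed the filter on low counts. By edgeR 1 member was called higher, against the 2.10% of all genes tested, and 0 were called lower, against 1.44%. At an unadjusted p under 0.05 there were 3 members above and 3 below, where 11.3% and 9.90% of all genes were. The median log2 fold change was -0.07 over the 28 members and -0.00014 over all genes tested, with 13 members above 0 and 15 below. The median of the members was 0.071 without DMSO replicate 1, 0.044 without YKL replicate 1 and -0.21 without DMSO replicate 2, so it had no stable sign. Both YKL libraries lay above both DMSO libraries in 4 members (27.0% of all genes) and below both in 9 (25.3%). Thus few members were called. Separation of the groups was common among all genes, so its counts alone describe no trait of the members. DESeq2, run on the same counts, called 2 members higher, Polr2a and Polr3k, and 2 lower, Polr3e and Polr3gl, where it called 5.28% and 4.95% of all genes.

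**Figure D1:**
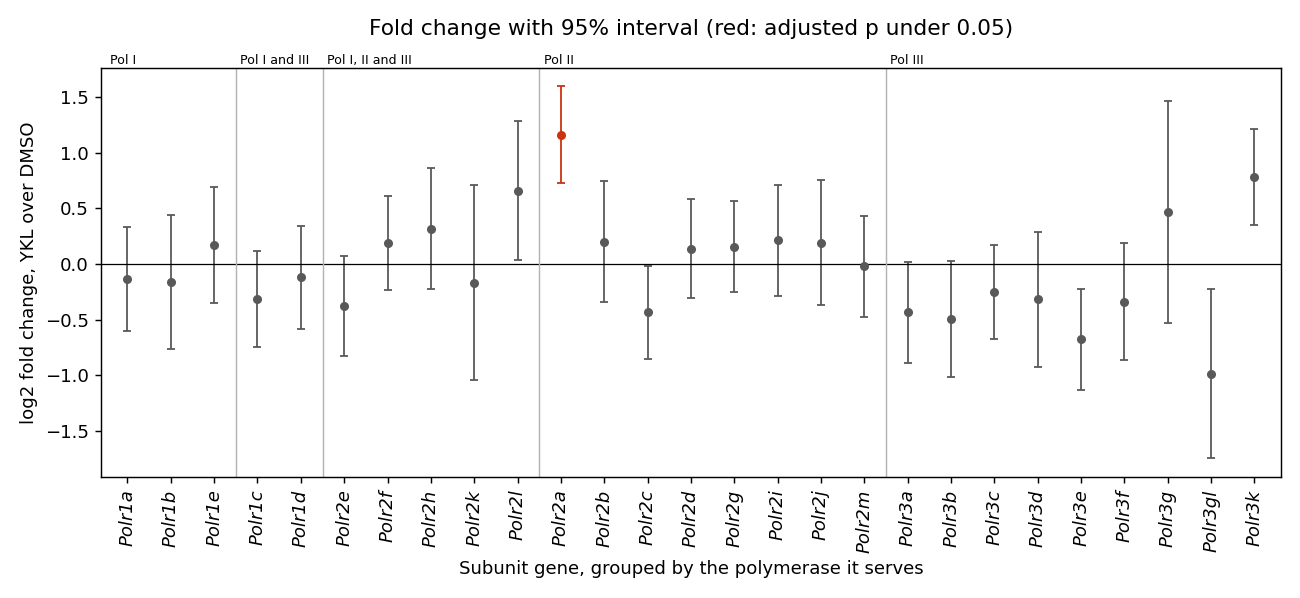
Log2 fold change of 27 subunit genes, YKL over DMSO (points), with its 95% interval (bars), grouped by the polymerase the subunit serves; red marks the gene with an adjusted p under 0.05. Polr2a is highest at 1.16, Polr3gl lowest at -0.99, and of the polymerase III genes drawn only Polr3g and Polr3k lie above 0.

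Polr2a (ENSMUSG00000005198, chromosome 11, 69733997 to 69758637, minus strand, mm10) had 726.4 and 720.0 CPM in the DMSO libraries and 1477 and 1760 CPM in the YKL libraries. The DMSO values were nearly the same, both YKL values lay well above them, and YKL replicate 2 was the highest. In counts these were 24302 and 22693 against 45261 and 56691. The rise was 2.24-fold, with a 95% interval of 1.65-fold to 3.03-fold (log2 fold change 1.16 ± 0.19, standard error; adjusted p = 0.0197). Scaled to its exonic length of 7067 bases, the level went from 102.3 ± 0.643 to 229 ± 28.3 CPM per kilobase (mean ± SD, n = 2 in each group). Among 14141 tested protein-coding genes this moved Polr2a from rank 341 in DMSO to rank 90 in YKL by level per kilobase. The size of the change itself was less exceptional, as 982 of the 16749 genes tested, many of them at lower levels, had a log2 fold change at least as high. No other gene of the table shares exonic bases with Polr2a. The call ended without YKL replicate 2 (log2 fold change 1.03, adjusted p = 0.13) and held without each of the other libraries, at adjusted p from 0.000761 to 0.0483.

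None of the other 27 subunits was called higher. Within a library, the ratio of 2 genes does not depend on the scaling, so the level of Polr2a per kilobase was divided by that of each of the other 27 subunits. In 26 of 27 pairs the ratio was higher in both YKL libraries than in both DMSO libraries. All 27 ratios share the Polr2a values, so each carries the rise of Polr2a and they are not separate comparisons. How often such a ratio separates the groups over all genes was not computed. Averaged on the log2 scale, the ratio was higher in YKL by 1.30-fold for Polr3k, the least, to 4.37-fold for Polr3gl, the most. The median was 2.40-fold. Against Polr2b, the partner large subunit, Polr2a stood at 1.49 and 2.45 in DMSO and at 3.27 and 3.94 in YKL. Relative to Polr2g, which sits on the stalk of polymerase II, the ratios were 1.06 and 1.21 in DMSO but 2.16 and 2.37 under YKL, so the 2 transcripts were at similar levels only in DMSO. The exception was Polr3g, whose ratios of 90.2 and 34.5 in DMSO overlapped those of 73.1 and 89.2 in YKL. Over the 12 subunits of polymerase II without Polr2m, Polr2a took 21.6% and 25.3% of the summed level per kilobase in DMSO and 37.2% and 38.9% in YKL. These ratios are given without a test, since 2 libraries against 2 cannot give an exact two-sided p below 0.333. In these libraries they describe a rise of Polr2a relative to 26 of the 27 other subunits. They do not show that any transcript stayed constant.

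**Figure D2:**
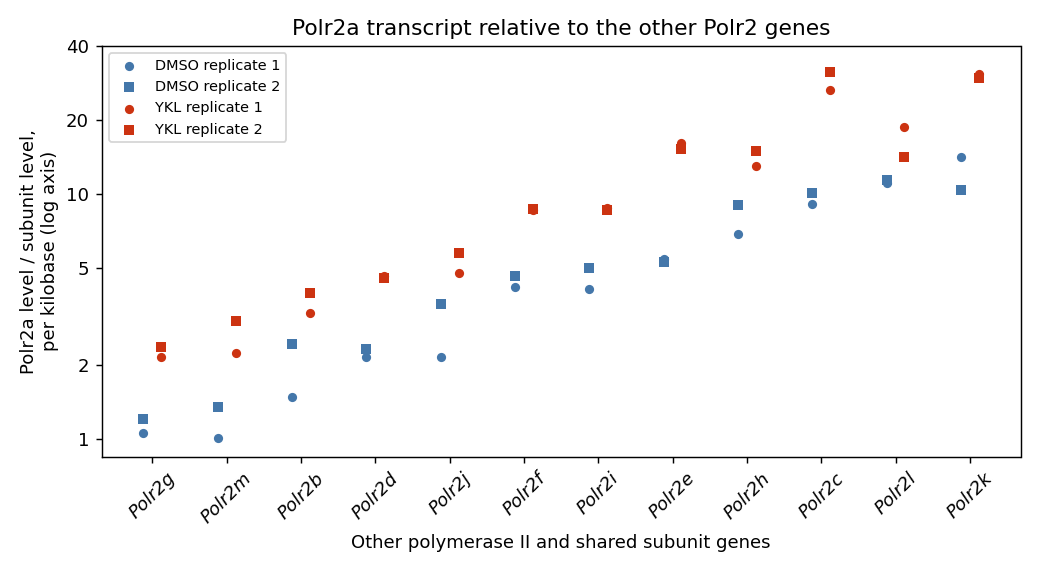
Level of Polr2a divided by the level of each other Polr2 gene in the same library, both per kilobase of exon, on a log axis; blue is DMSO, red is YKL, circles are replicate 1 and squares replicate 2. In each of the 12 genes both red points lie above both blue ones, for example at 3.27 and 3.94 against 1.49 and 2.45 for Polr2b. All 12 share the Polr2a values and are not separate comparisons.

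Of the 7 other subunits that only polymerase II uses, 0 were called by edgeR, 5 lay above 0 and 2 below, and their median log2 fold change was 0.16. That median was 0.27 without DMSO replicate 1, -0.15 without DMSO replicate 2 and 0.067 without YKL replicate 2. Polr2b (ENSMUSG00000029250, chromosome 5, 77310147 to 77349324) had 322.6 and 194.3 CPM in DMSO and 298.7 and 295.3 CPM in YKL. The DMSO libraries enclosed the YKL libraries, and the interval of the change ran from 0.79-fold to 1.68-fold (adjusted p = 0.696). The log2 fold change of Polr2b was 0.61 without DMSO replicate 1 and -0.15 without DMSO replicate 2. Polr2c, which helps to assemble the enzyme, had 59.4 and 53.1 CPM in DMSO and 41.6 and 41.8 CPM in YKL. Both YKL values lay below both DMSO values, but the difference missed the threshold (log2 fold change -0.43 ± 0.19, adjusted p = 0.223). Polr2d and Polr2g, the pair that forms the stalk, had log2 fold changes of 0.14 and 0.16, and Polr2i and Polr2j had 0.21 and 0.19. Polr2m, which encodes the polymerase-associated inhibitor Gdown1, was at -0.02, with an interval from 0.72-fold to 1.35-fold. The intervals of Polr2b, Polr2d, Polr2g, Polr2i, Polr2j and Polr2m ended at 1.35-fold to 1.69-fold, below the 2.24-fold estimated for Polr2a. The interval of Polr2a itself began at 1.65-fold, so it overlapped those of Polr2b, up to 1.68-fold, and Polr2j, up to 1.69-fold. Outside this group it also overlapped those of Polr2h, up to 1.82-fold, Polr2l, up to 2.44-fold, Polr3k, up to 2.31-fold, and Polr3g, up to 2.76-fold. The intervals of Polr2l, Polr3k and Polr3g included the 2.24-fold estimated for Polr2a.

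Among the 5 subunits built into all 3 enzymes, 0 were called, with a median log2 fold change of 0.19 that ranged from 0.065 without YKL replicate 2, through 0.082 without DMSO replicate 2, to 0.31 without YKL replicate 1. Polr2l, a small zinc-binding subunit, had 15.4 and 14.7 CPM in DMSO and 18.4 and 29.1 CPM in YKL. Both YKL libraries were higher, but they differed from each other more than the lower of them differed from DMSO (log2 fold change 0.66 ± 0.28, adjusted p = 0.215). Polr2e had 50.4 and 51.5 CPM in DMSO and 34.8 and 43.6 CPM in YKL, with no overlap between the groups (-0.38 ± 0.20, adjusted p = 0.318). Polr2h stood at 22.7 and 17.0 CPM in DMSO and 24.3 and 25.3 CPM in YKL, and Polr2f and Polr2k had log2 fold changes of 0.19 and -0.17. Polr2k was the least read member of this group, at 5.33 CPM in DMSO, and its interval from 0.49-fold to 1.63-fold is wide. The subunits that polymerases I and III share had a median of -0.22, which was -0.063 without DMSO replicate 1 and -0.39 without DMSO replicate 2. Polr1c had 47.4 and 42.3 CPM in DMSO and 36.1 and 36.1 CPM in YKL (-0.32 ± 0.19, adjusted p = 0.388), while the groups overlapped for Polr1d (-0.12 ± 0.21).

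The 3 subunits that only polymerase I uses showed no separation of the groups. Polr1a (ENSMUSG00000049553, chromosome 6, 71909053 to 71984935), the largest subunit, had 52.7 and 42.0 CPM in DMSO and 39.0 and 47.1 CPM in YKL (log2 fold change -0.14 ± 0.21, adjusted p = 0.767). Polr1b, its large partner, had 26.9 and 20.9 CPM in DMSO and 17.3 and 25.5 CPM in YKL (-0.16 ± 0.27, adjusted p = 0.79). Polr1e, which works in initiation and elongation, had 21.3 and 19.2 CPM in DMSO and 21.3 and 24.2 CPM in YKL (0.17 ± 0.23, adjusted p = 0.742). The intervals reached from 0.66-fold to 1.26-fold for Polr1a and from 0.59-fold to 1.36-fold for Polr1b. Changes up to these sizes may have been missed. Without DMSO replicate 1 both genes turned to slightly positive values, 0.04 and 0.03. Other polymerase I subunits, named Twistnb, Cd3eap and Znrd1 in these files, and the polymerase III subunit Crcp were counted apart. None of the 4 was called by edgeR, all lay below 0 with every library in the fit, and 0 had an unadjusted p under 0.05. Without DMSO replicate 1, and also without YKL replicate 1, 1 of the 4 lay above 0. Crcp, the most abundant of them per kilobase, went from 36.7 ± 11.4 to 26.1 ± 3.78 CPM, and Znrd1 from 16.7 ± 2.95 to 13.8 ± 0.871 CPM.

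For polymerase III, most of the 10 subunit transcripts lay lower in YKL, but none passed the test over all genes. The median log2 fold change was -0.33, with 7 below 0, and in 6 of the 10 both YKL libraries lay below both DMSO libraries, an arrangement that held for 25.3% of all genes. The size of the median rests on the DMSO libraries, at -0.13 without replicate 1 and -0.55 without replicate 2 of that group, while 7 or 8 of the 10 genes lay below 0 with any 1 library left out. Polr3a (ENSMUSG00000025280, chromosome 14, 24448696 to 24487058), the largest subunit, had 40.2 and 36.7 CPM in DMSO and 27.7 and 29.2 CPM in YKL. The groups were apart and each pair was tight, with a log2 fold change of -0.43 ± 0.20 (adjusted p = 0.252). Polr3b, the other large subunit, had 63.1 and 43.0 CPM in DMSO and 34.04 and 41.28 CPM in YKL (-0.49 ± 0.23, adjusted p = 0.262). The value was -0.78 without DMSO replicate 2, where it was called (adjusted p = 0.0172), and -0.19 without DMSO replicate 1 (adjusted p = 0.702). Polr3e, which pairs with Polr3d in a subcomplex for initiation and termination, had 40.6 and 44.9 CPM in DMSO and 25.4 and 28.1 CPM in YKL. Its YKL level was 0.63 of the DMSO level, and it had the smallest p of the lower members (-0.68 ± 0.20, adjusted p = 0.0987), and DESeq2 called it (adjusted p = 0.0465). Polr3d itself had a log2 fold change of -0.32, and Polr3c and Polr3f, which belong to a subcomplex for promoter opening together with Polr3g or Polr3gl, had -0.25 and -0.34.

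Polr3k, a small subunit that acts in RNA cleavage and termination, lay on the other side. It had 75.7 and 85.7 CPM in DMSO and 124.3 and 152.9 CPM in YKL, and the groups did not overlap. Its log2 fold change of 0.78 ± 0.19 just missed the threshold (adjusted p = 0.057). The gene was called without the filter (adjusted p = 0.0113), by DESeq2 (adjusted p = 0.0175) and without DMSO replicate 2 (adjusted p = 0.00884), but not without either YKL library.

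Polr3g and Polr3gl are paralogs that take the same place in polymerase III, Polr3g being known from stem cells and tumours and Polr3gl from differentiated cells. Polr3gl (ENSMUSG00000028104, chromosome 3, 96577872 to 96594181) had 12.8 and 20.3 CPM in DMSO and 9.82 and 6.89 CPM in YKL. Both YKL libraries were lower, and the log2 fold change of -0.99 ± 0.34, about 0.505 of the DMSO level, was the lowest of all 28 members (adjusted p = 0.137). It was called without DMSO replicate 1 (-1.28, adjusted p = 0.0147), without the filter (adjusted p = 0.0397) and by DESeq2 (adjusted p = 0.0362), whereas without DMSO replicate 2 it was -0.65 (adjusted p = 0.218). For Polr3g the DMSO libraries stood at 4.48 and 11.6 CPM and the YKL libraries at 11.26 and 10.99 CPM. Only DMSO replicate 1 was low, so the value rests on it: the log2 fold change of 0.47 ± 0.44 became -0.06 without DMSO replicate 1 and 1.28 without DMSO replicate 2 (adjusted p = 0.0137). Per kilobase, the ratio of Polr3g to Polr3gl was 0.142 and 0.232 in DMSO but 0.465 and 0.647 under YKL. By this measure Polr3gl was the higher of the paralogs in each of the 4 libraries, by a smaller margin in YKL. In CPM, Polr3gl was the higher in both DMSO libraries but Polr3g in both YKL libraries. The order in YKL therefore rests on the exonic lengths, 3936 bases for Polr3g and 1597 for Polr3gl. The gene of another polymerase III subunit, Polr3c, lies on the same strand of chromosome 3 (96711490 to 96727628).

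The levels of the subunit transcripts differed widely within each enzyme. In DMSO the means ran from 3.99 to 5.21 CPM per kilobase for the 3 polymerase I genes, from 18.8 to 19.7 for the 2 that polymerases I and III share, from 8.55 to 23.3 for the 5 shared by all enzymes, from 10.7 to 102.0 for the 8 of polymerase II and from 2.04 to 25.8 for the 10 of polymerase III. The highest were Polr2a, Polr2g and Polr2m, and the lowest was Polr3g. In DMSO, Polr2a at 102.3 ± 0.643 CPM per kilobase lay above Polr2g at 90.5 ± 9.05 in both libraries, and its distance to Polr2m at 88.4 ± 19.0 was within the spread of Polr2m. Polr2g and Polr2m did not differ beyond their spread in DMSO. In YKL, Polr2a stood further from Polr2g at 101 ± 5.99 and from Polr2m at 87.3 ± 7.76. The exonic length in the table joins the exons of all transcript forms, so a gene with many forms appears lower per kilobase. All the members together took 0.228% and 0.204% of the counts in DMSO and 0.299% and 0.321% in YKL, of which Polr2a made up 0.0711%, 0.073%, 0.152% and 0.172%.

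**Figure D3:**
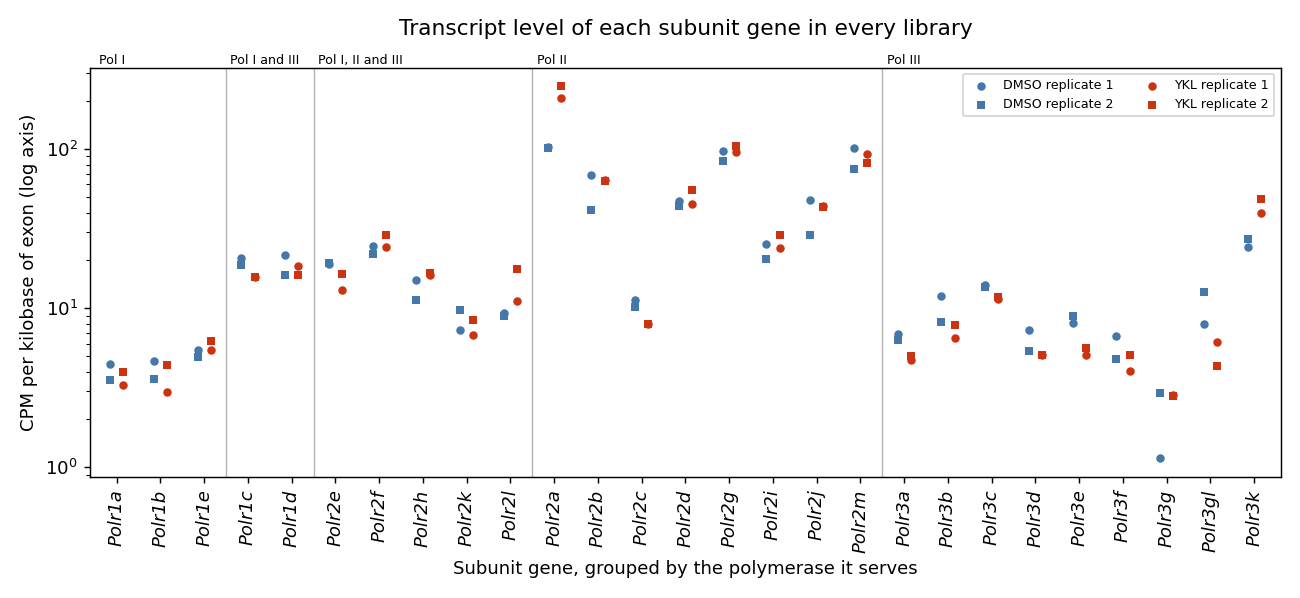
Level of 27 subunit genes in every library, in CPM per kilobase of exon on a log axis, grouped by the polymerase; blue is DMSO, red is YKL, circles are replicate 1 and squares replicate 2. Polr2a is at 102.8 and 101.9 in DMSO and at 209.0 and 249.0 in YKL, while for most other genes red and blue points lie close together.

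Subunits also varied together between the replicates of a group. Of the 28 members, 22 were higher in DMSO replicate 1 than in DMSO replicate 2, as were 49.9% of all genes tested, and 22 were higher in YKL replicate 2 than in YKL replicate 1, as were 50.3% of all genes. Over the 28 members, the median absolute log2 ratio between the libraries of a group was 0.252 in DMSO and 0.21 in YKL. Exons of 11 members share bases with another gene, among them Polr2c with Dok4 (18.13% of its length), Polr2i with Tbcb (26.82%) and Polr2j with Lrwd1 (15.91%), all on the opposite strand. Because the strand setting of the counting is not given in the sources used here, reads of such pairs cannot be told apart. Polr2m shares 17.37% of its length with Gcom1 on the same strand, where strand would not separate them. Gcom1 had 0 counts.

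Few of the factors that work with the polymerases were called. Of 12 tested polymerase I factors, 1 fell and 0 rose, where 1.44% and 2.10% of all genes did, and the median log2 fold change was -0.30 (-0.47 without YKL replicate 1 and -0.45 without DMSO replicate 2). At an unadjusted p under 0.05, 4 of the 12 lay below 0 and 0 above, against 9.90% and 11.3% of all genes. The gene that fell was Nop53, a nucleolar protein of ribosome assembly, with 145.1 and 155.8 CPM in DMSO and 51.8 and 67.9 CPM in YKL (log2 fold change -1.33 ± 0.20, adjusted p = 0.0135), although without YKL replicate 1 its adjusted p was 0.0944. Of 19 polymerase III factors 0 were called by edgeR, with 0 above (11.3% of all genes) and 3 below 0 (9.90%) at an unadjusted p under 0.05. Among these Ssb, the La protein that binds the ends of polymerase III transcripts, went from 193 ± 25.9 to 208 ± 10.7 CPM. Maf1, the repressor of polymerase III, went from 81.6 ± 5.42 to 51.3 ± 0.0486 CPM (-0.67 ± 0.18, adjusted p = 0.0756).

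Of 21 genes whose products bind or modify the C-terminal domain of Polr2a, 1 rose and 0 fell, where 2.10% and 1.44% of all genes did. Rprd1a, a protein that binds this domain, had 23.7 and 30.3 CPM in DMSO and 53.1 and 50.0 CPM in YKL (log2 fold change 0.94 ± 0.21, adjusted p = 0.0431). Its call ended when DMSO replicate 1 (adjusted p = 0.0518), YKL replicate 1 (0.229) or YKL replicate 2 (0.195) was left out, and with total count or upper quartile scaling (0.0732 and 0.0637) or a prior that is not robust (0.0647). Of 20 genes for assembly and import of the enzymes 0 were called, with 1 above (11.3% of all genes) and 5 below 0 (9.90%) at an unadjusted p under 0.05. Rtraf stood at 215 ± 4.23 CPM in DMSO and 147 ± 1.69 CPM in YKL (adjusted p = 0.112), and the prefoldin gene Pfdn6 went from 67.7 ± 7.51 to 68.3 ± 13.6 CPM. Of 20 genes for the turnover of Polr2a and for stalled polymerase 0 were called, with 0 above (11.3% of all genes) and 2 below 0 (9.90%) at an unadjusted p under 0.05. Elob, a subunit of elongin, went from 144 ± 11.8 to 127 ± 14.2 CPM, and Nedd4, a ubiquitin ligase of Polr2a, from 1637 ± 108.4 to 1695 ± 29.8 CPM (adjusted p = 0.918).

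The authors' deposited table, a comparison of YKL with DMSO for 15936 genes, holds all 28 members. At an adjusted p under 0.05 the authors' deposited table has 3 members higher (Polr2a, Polr3k and Polr2l) and 5 lower (Polr3e, Polr3gl, Polr3a, Polr3b and Polr2c), against 13.9% and 13.9% of all its genes. The log2 fold changes in the authors' deposited table were 1.09 for Polr2a, 0.73 for Polr3k, -0.66 for Polr3e and -0.88 for Polr3gl. Its mean signal did not follow the counts used here in a uniform way. For Polr2f it was 2344, where the counts were 2130 and 1807 in DMSO and 1943 and 2403 in YKL. For Polr3g it was 272.1, where the counts were 150 and 366 in DMSO and 345 and 354 in YKL. Whether the authors' deposited table rests on the same samples and counts was not tested.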

How the data were processed

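Bulk RNA sequencing of RPP631 cells gave 4 libraries, 2 in DMSO and 2 in YKL, grouped by their labels. The authors deposited raw counts per gene and library, made with STAR 2.5.2b on mm10 and featureCounts per the submitters' processing notes. Neither the strand setting nor the annotation release is given in the sources used here. The authors also deposited a table of a comparison, for which their notes name DESeq2, with a mean signal in normalized counts, log2 fold changes, a standard error and test score, and p-values with adjusted p-values; it was only set beside the results. Symbols and biotypes came from the deposited gene annotation.

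All genes were tested with edgeR 4.0.16 in R 4.3.3: filterByExpr (minimum count 10, minimum total 15), TMM scaling, and its quasi-likelihood test (robust prior, 2 residual degrees of freedom). Calls required a p under 0.05 after Benjamini-Hochberg adjustment over 16749 genes. CPM is TMM-scaled, and standard errors and 95% intervals follow from the F statistic. The common coefficient of variation was 25%. The procedure was tested on simulated data, where it missed many of the smaller changes and made more false calls than the nominal rate. Libraries of a pair differed beyond sampling noise (chi-square per degree of freedom 86.6 in DMSO and 37.1 in YKL). 1 member is counted with the others but not reported here by itself; all others are named. Values in each library are given for the large catalytic subunits, Polr3g and Polr3gl, and in each polymerase the members with the smallest p in each direction, and for others added after their values were seen. From other lists the called genes, or the 2 most abundant per kilobase, are named. The members and lists were chosen with earlier results of these data known. Gene bounds of 26 of 28 members equal those in GENCODE M21 (GRCm38), the source of the repeat sequences. The alternatives tried were scaling by upper quartile, total count or RLE, a filter of 5 CPM in 2 libraries or none, leaving out each library, a replicate block, a fit of protein-coding genes only, a prior that is not robust, DESeq2 1.42.0 and an adjusted p under 0.01. Figures used matplotlib 3.10.9.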

Additional observations from a re-analysis of the deposited data

How the results depend on the processing

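The rise of Polr2a kept its direction in every alternative run. At an adjusted p under 0.01 the value of 1.16 (adjusted p = 0.0197) was no longer called, and with 1 library left out the log2 fold change ran from 1.03 to 1.29. Its excess over the median of the other 27 subunits, 1.28 on the log2 scale, ran from 1.13 to 1.38 with 1 library left out. The members called higher numbered 2 without the filter, 2 with the replicate block (Polr2a, and Polr3k at an adjusted p of 0.0204), 2 by DESeq2 and 0 at an adjusted p under 0.01, and from 0 to 3 with 1 library left out. The members called lower numbered 1 without the filter, 2 by DESeq2 and from 0 to 1 with 1 library left out. The replicate numbers are shared labels only: deviations of same-numbered libraries correlated at 0.132, and the block also raised the calls over all genes from 593 to 1387. Calls over all genes were 1466 by DESeq2, 1740 without the filter, 236 with a prior that is not robust, 331 with upper quartile and 169 with total count scaling, and from 71 to 2453 with 1 library left out. Upper quartile scaling turned Polr2m to 0.0085. Several members, most of them with values near 0 but also Polr3g at 0.47, changed sign with 1 library left out, in ranges of -0.33 to 0.039 for Polr1a, -0.47 to 0.094 for Polr1b, -0.35 to 0.10 for Polr1d, -0.15 to 0.61 for Polr2b, -0.012 to 0.28 for Polr2d, -0.16 to 0.61 for Polr2j, -0.37 to 0.029 for Polr2k, -0.26 to 0.22 for Polr2m and -0.06 to 1.28 for Polr3g. The cause was not tested. In these fits the lone library is assumed to vary like the other group. Of 392 other values, those of Nop53, Rprd1a and the named subunits without Polr2a, 361 kept their direction and their side of the threshold. The subunits among them were uncalled with every library in the edgeR fit, so keeping their side mostly meant staying uncalled.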

Other observations

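Mitochondria have an RNA polymerase of their own, Polrmt, a single-subunit enzyme. Of its 6 listed genes 0 were called by edgeR, with 1 above (11.3% of all genes) and 0 below 0 (9.90%) at an unadjusted p under 0.05. Polrmt had 27.9 and 33.2 CPM in DMSO and 29.3 and 31.1 CPM in YKL (log2 fold change -0.02 ± 0.21, adjusted p = 0.979). Tfam, which packages mitochondrial DNA and starts its transcription, went from 87.6 ± 13.9 to 122 ± 16.2 CPM (adjusted p = 0.204), and Tefm, its elongation factor, from 12.8 ± 1.40 to 9.85 ± 0.192 CPM (adjusted p = 0.504). Polrmt was chosen after its values were seen. Across the 28 subunit genes, exonic length and log2 fold change had a Spearman correlation of -0.242, and across all 16749 genes tested one of -0.0748. Genes are not independent replicates, and these values describe only these libraries.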
